A study of Homo sapiens with 58 samples.

Results

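Baseline messenger RNA was compared between 3 triple-negative breast cancer cell lines with a published BRCA1 mutation (HCC1937, MDAMB436 and SUM149PT) and 10 triple-negative lines with no reported BRCA1 mutation (HCC70, HCC1143, HCC1187, HCC1806, MDAMB468, BT20, MDAMB231, BT549, HS578T and MDAMB157). These are 13 of the 58 lines of the series, each measured on 1 custom Affymetrix array; the labels call all 58 breast cancer, although some titles name immortalised mammary epithelial lines. The sample titles gave the line names; BRCA1 status and the basal A or basal B subtype came from published knowledge of the lines, since the labels name no groups. All lines were grown in culture without treatment, and no line had a second array. Every spread below is therefore that between different tumours' lines, in which error of measurement cannot be told apart. HCC1937 is basal A, and MDAMB436 and SUM149PT are basal B; of the 10 other lines, 6 are basal A and 4 are basal B.

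BRCA1 is a tumour suppressor that works with its partner BARD1 as a ubiquitin ligase and, bound to PALB2, acts at resected DNA ends. Cells without its function repair double-strand breaks poorly by homologous recombination and depend more on other routes, which is the basis of treatment with PARP inhibitors. In the breast, inherited BRCA1 mutations are known for giving rise to triple-negative, basal-like tumours, which lack oestrogen and progesterone receptor and HER2 amplification.

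Values are log2 intensities from RMA (robust multi-array average), so that a difference of 1 unit is a factor of 2 in signal. Of 19769 genes measured, 13160 were detected, meaning above the array's own median in at least 3 of the 13 lines, and each gene was represented by its single-gene probe set of highest mean. Array medians lay between 5.43 and 5.57. The spread of each array around the gene medians (interquartile range) was 0.487 to 0.573 over the 13 arrays and 0.5 to 0.558 in the 3 BRCA1-mutant lines. Background was set at 5.53, the 95th percentile of 744 viral probe sets in these lines. PGR, the progesterone receptor, was at background in all 13 lines. ESR1, the oestrogen receptor, was above background in 2 of 3 BRCA1-mutant and 6 of 10 other lines, at up to 10.005 in HCC1937 and 10.64 in BT20, so the triple-negative label was not matched by absence of ESR1 transcript. KRT5, a basal keratin, stood at 12.39 in HCC1937 and 13.04 in SUM149PT but at 3.89 in MDAMB436.

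The BRCA1 transcript itself was low in MDAMB436 and SUM149PT and not in HCC1937. This transcript was read by 1 single-gene probe set, with no second one to compare. Its level was 6.87 in SUM149PT, the second lowest of the 58 arrays, and 7.43 in MDAMB436, the sixth lowest. HCC1937 had 9.34, the third highest of the 13 lines, below HS578T at 9.44 and BT549 at 9.50. The 10 other lines ran from 8.19 in MDAMB157 to 9.50 in BT549, with a median of 8.87. Both low lines therefore lay below all 10 others, while HCC1937 lay inside their range. The BRCA1-mutant lines were lower by 1.01 on average (difference -1.01, SE 0.44, n = 3 and 10), with a 2-sided exact permutation p of 0.03497 over all ways to choose 3 of 13 lines, the smallest possible being 0.003497. In limma's fit across all genes, the unadjusted p was 0.037 and the adjusted p 0.9997. In RNA from a whole culture, fewer cells with the transcript and less transcript per cell cannot be told apart.

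The BRCA1 difference depended on which lines were compared. Without HCC1937 it was -1.74 (exact permutation p = 0.01515), without MDAMB436 -0.79 (exact permutation p = 0.1515) and without SUM149PT -0.51 (exact permutation p = 0.2727). Leaving out a single control line also moved p to the threshold or past it, to 0.05 without BT549 or HCC1806 and 0.05455 without HS578T (exact permutation). With subtype as a term it was -0.88 (exact permutation within subtype, p = 0.1333), and among basal B lines alone, 2 against 4, it was -1.73 with p = 0.1333 (exact permutation), where 6 lines cannot give less than 0.06667. HCC1395, a further line reported to carry a BRCA1 mutation, had 7.53. With HCC1395 added to the mutant lines the difference was -1.10 (exact permutation p = 0.01199).

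**Figure D1:**
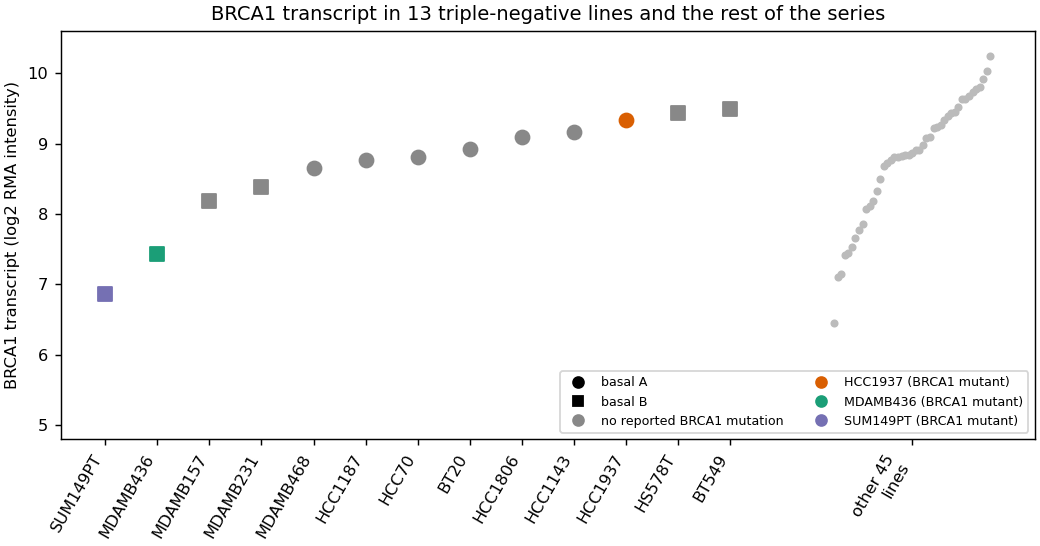
BRCA1 transcript (log2 RMA intensity, vertical axis) in the 13 lines ordered by level, with circles for basal A and squares for basal B, and the other 45 lines of the series as small grey points. SUM149PT (6.87) and MDAMB436 (7.43) lie below all 10 lines with no reported mutation, and HCC1937 (9.34) lies among the highest.

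The window around the BRCA1 start site is shown because the transcript level is the first result and because the neighbouring gene NBR2 starts from the same stretch in the opposite direction. It is taken from RefSeq (GRCh38.p14, chr17:43125315-43125614, minus strand, 300 bases), written 5′ to 3′ along BRCA1, and shares 292 bases with the window of NBR2. Capitals mark the single match, on either strand, to TGACGT, the core of the cyclic AMP response element.
BRCA1: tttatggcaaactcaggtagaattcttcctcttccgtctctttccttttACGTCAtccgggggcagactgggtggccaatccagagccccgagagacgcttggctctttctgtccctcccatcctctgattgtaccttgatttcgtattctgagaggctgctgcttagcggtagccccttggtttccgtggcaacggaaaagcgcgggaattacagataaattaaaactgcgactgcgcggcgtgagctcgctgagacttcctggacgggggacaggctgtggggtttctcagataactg
The match begins at position -201 from the start, and 2803 of 35116 promoter windows of this length (7.98%) hold at least 1. NBR2 was not detected, with levels of 4.33, 3.91 and 4.58 in HCC1937, MDAMB436 and SUM149PT and 3.27 to 4.45 in the others. Of 12 detected neighbours of BRCA1 along its chromosome, 10 had a positive and 2 a negative difference, the median was 0.17, and none passed an unadjusted p of 0.05. NBR1, an autophagy receptor beside NBR2, stood at 11.68, 10.95 and 11.64 in the mutant lines against 10.597 to 11.80.

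Across all 13160 genes, no gene passed a Benjamini-Hochberg adjusted p of 0.05 in limma in either direction (0 higher and 0 lower, 0%). At an unadjusted p of 0.05, 531 genes passed (4.03%), 308 higher in the BRCA1-mutant lines (2.34%) and 223 lower (1.69%), a split that was 257 higher and 282 lower when arrays were centred on their medians. For genes with no difference by group, a threshold of 0.05 by itself passes that share, and 4.03% did not exceed it. The smallest adjusted p was 0.2734, for FRG1, a gene named for the facioscapulohumeral dystrophy region. FRG1 stood at 11.74, 12.33 and 12.23 in HCC1937, MDAMB436 and SUM149PT, above all 10 others at 10.78 to 11.37, and FRG1 was picked out after its values were seen. The human genome holds near-identical FRG1 copies, so its value is uncertain. The median difference over all genes was 0.01, and a difference of at least 1 was seen for 871 genes upward and 504 downward.

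**Figure D2:**
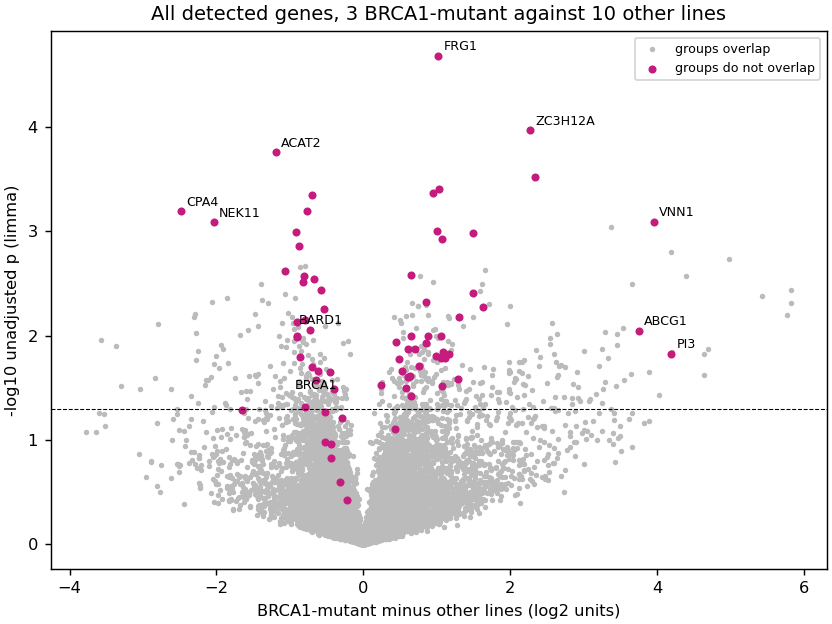
Difference between the 3 BRCA1-mutant and 10 other lines (log2 units, horizontal axis) against the unadjusted limma p (as -log10, vertical axis) for 13160 genes, with the 72 genes whose groups do not overlap in magenta and an unadjusted p of 0.05 as the dashed line. FRG1 has the smallest p, and the BRCA1 and BARD1 labels lie to the left of 0 above the dashed line.

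The partners of BRCA1 were mostly level between the groups, with BARD1 the exception in size. BARD1 was at 9.03 in HCC1937, 8.23 in MDAMB436 and 8.41 in SUM149PT, while the others ran from 8.72 in MDAMB157 through a median of 9.37 to 10.29 in HCC70. MDAMB436 and SUM149PT, the lines lowest in BRCA1, were thus also below all 10 others in BARD1, and HCC1937 lay above MDAMB157. The BARD1 difference was -0.95 (SE 0.31, limma unadjusted p = 0.008685, adjusted p = 0.9997). BRIP1, the helicase that binds the BRCT repeats of BRCA1, stood at 7.36, 6.27 and 6.59 against 6.35 to 8.33, a difference of -0.65 (SE 0.41), with MDAMB436 alone below the range.
PALB2, which binds the coiled coil of BRCA1, differed by 0.32 (SE 0.32), with all 3 mutant lines (8.94, 8.86 and 8.66) inside the range of 7.75 to 9.35. UIMC1, also called RAP80, which leads BRCA1 to ubiquitin at breaks, differed by 0.31 (SE 0.28). The other members of that complex gave -0.03 for ABRAXAS1 (SE 0.41), 0.03 for BRCC3 (SE 0.38), 0.01 for BABAM1 (SE 0.22) and 0.13 for BABAM2 (SE 0.30), and the signs of BRCC3 and BABAM1 turned when arrays were centred on their medians. TOPBP1, a checkpoint activator, gave -0.10 (SE 0.21). Of the 9 detected partners only BARD1 passed an unadjusted p of 0.05, besides BRCA1 itself, which makes 2 of 10 lower against 1.69% of all genes; none passed the adjusted threshold, and the list's median was -0.01 beside 0.01 for all genes.

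Among 19 detected genes of homologous recombination, 14 had a negative and 5 a positive difference, with a median of -0.25 beside 0.01 over all genes. None passed the adjusted threshold, and 1 higher and 2 lower passed an unadjusted p of 0.05, against 2.34% and 1.69% of all genes. RAD54L, a DNA motor protein that promotes strand invasion, was 7.68 in HCC1937, 8.28 in MDAMB436 and 8.30 in SUM149PT, below all 10 others at 8.34 (MDAMB231) to 9.59 (HCC1187). Its difference was -0.91 (SE 0.30, limma unadjusted p = 0.01034, adjusted p = 0.9997), and the gap between the groups was narrow beside the spread of either. RAD52, which anneals single strands and serves as a back-up route in BRCA-deficient cells, was 9.31, 10.16 and 10.67, against 8.001 to 10.11 with a median of 8.51. MDAMB436 and SUM149PT exceeded all 10 others in RAD52, and HCC1937 fell between them, for a difference of 1.36 (SE 0.43, limma unadjusted p = 0.008116, adjusted p = 0.9997).
DNA2, a nuclease of long-range resection, differed by -0.79 (SE 0.40), with only HCC1937 (6.42) below the others' lowest value of 7.13.
RAD51B, a homologous recombination protein, was 3.16 in MDAMB436, below background and the lowest of all 58 arrays, while HCC1937 (8.31) exceeded all 10 others, which lay between 7.198 and 8.12, and SUM149PT (7.93) lay among them. The RAD51B difference of -1.15 became 0.50 without MDAMB436, so this value rested on that line.

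**Figure D3:**
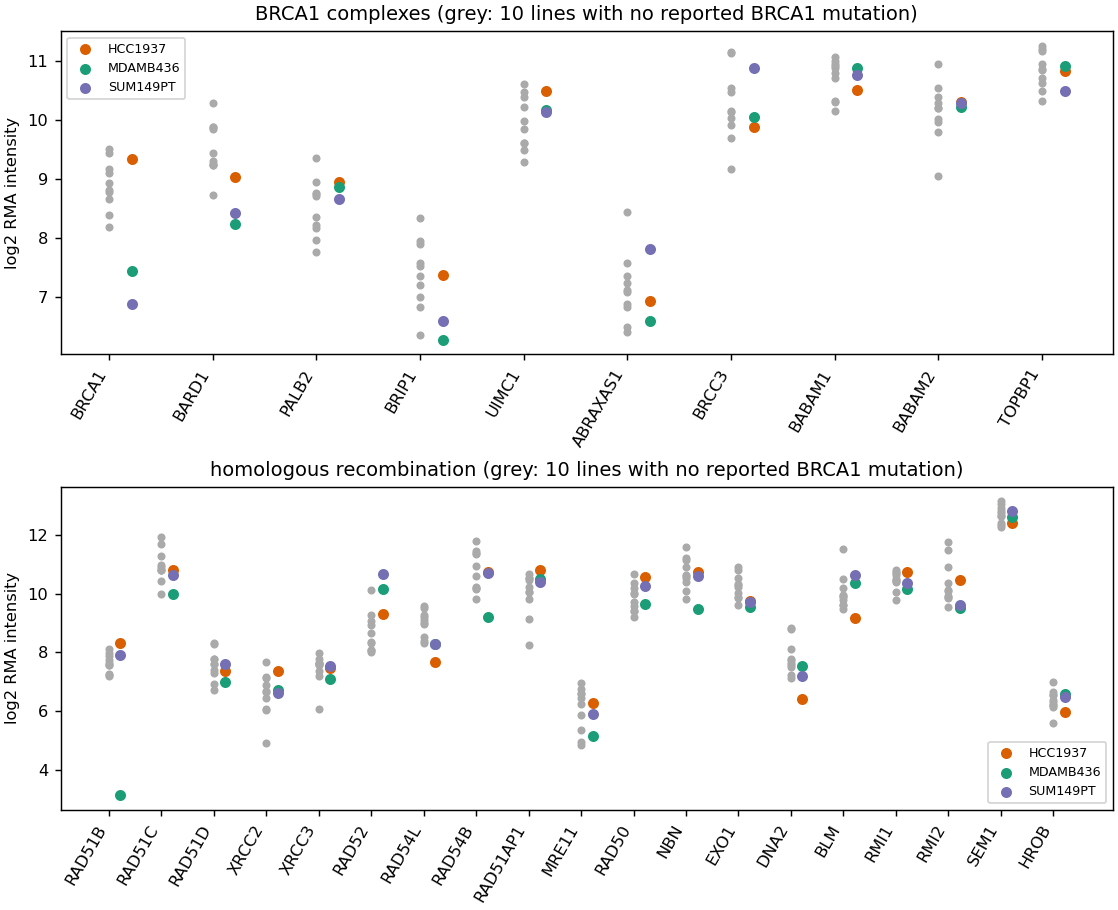
Level (log2 RMA intensity, vertical axis) of the measured BRCA1 complex members (upper panel) and homologous recombination genes (lower panel) in 13 lines, coloured for the 3 BRCA1-mutant lines and grey for the 10 others. MDAMB436 stands alone at the bottom for RAD51B (3.16), RAD54L is lowest in the 3 mutant lines, and HCC1937 stands apart from the other mutant lines for BRCA1 itself.

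The remaining repair lists held few differences. In the Fanconi pathway, which removes crosslinks between strands, 0 of 14 detected genes passed an unadjusted p of 0.05 in limma and 11 had a negative difference. The largest were FANCB, a core complex subunit, at -0.78 (SE 0.39), MAD2L2 at -0.61 (SE 0.35), the nuclease FAN1 at 0.49 (SE 0.38) and FANCE at -0.45 (SE 0.25). Of 13 genes that protect DNA ends from resection, whose loss is known to restore recombination in BRCA1-deficient cells, none passed an unadjusted p of 0.05, and SHLD1, a shieldin subunit, had the next difference after MAD2L2, at -0.57 (SE 0.52). SHLD1 was 7.79 in HCC1937 but 6.29 and 6.06 in MDAMB436 and SUM149PT, just below the others' lowest value of 6.39.
In end joining, 8 of 10 genes had a negative difference, and 1 passed an unadjusted p of 0.05, against 1.69% of all genes lower: XRCC5, the larger Ku subunit. XRCC5 was 11.53 in HCC1937, below all 10 others at 12.20 to 12.66, but 12.24 and 12.45 in the other mutant lines. Its difference of -0.36 (SE 0.16) shrank to -0.09 without HCC1937, and with probe sets averaged XRCC5 no longer passed (-0.30, limma unadjusted p = 0.1037).
Of 14 checkpoint genes, 10 had a negative difference, and WEE1, the kinase that restrains entry into mitosis, was the 1 that passed an unadjusted p of 0.05, against 1.69% of all genes lower. WEE1 was 11.52, 11.40 and 11.34 against 11.51 to 12.58, a difference of -0.59 (SE 0.21, limma unadjusted p = 0.01494, adjusted p = 0.9997), with HCC1937 just above MDAMB157. With the probe sets of WEE1 averaged the difference was -0.41 and did not pass (limma unadjusted p = 0.249). Of 10 genes of replication fork protection none passed an unadjusted p of 0.05, and EZH2, the histone methyltransferase, had the largest difference at -0.71 (SE 0.39).

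Genes tied to PARP inhibitors showed no common shift, with 7 of 13 positive, 6 negative and none past an unadjusted p of 0.05. PARP3, a break-responsive family member, was 7.92, 7.86 and 8.28 against 5.78 to 8.32, a difference of 1.14 (SE 0.54), and the 3 mutant lines all exceeded the others' median of 6.53. SLFN11, known for sensitising cells to drugs that stall replication, divided the mutant lines: 9.96 in MDAMB436, close to the others' highest value of 10.25, but below background at 4.46 in HCC1937 and 2.61 in SUM149PT. The efflux pump ABCB1 was below background in all 3 (4.04, 4.21 and 4.09). Most of the others, which ran from 3.83 to 6.24, were also below background. Only HCC1187 (5.55), HCC1806 (5.82) and MDAMB468 (6.24) exceeded it. ABCG2, another efflux pump, was 4.90, 7.202 and 5.76 against 4.13 to 9.31.

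Of 18 proliferation genes, 15 had a negative difference, the median was -0.14 beside 0.01 over all genes, and 2 passed an unadjusted p of 0.05, both lower, against 1.69% of all genes. MCM5, a subunit of the replicative helicase, was 8.99 in HCC1937, 8.71 in MDAMB436 and 8.83 in SUM149PT, below all 10 others at 9.08 to 10.93 (difference -0.80, SE 0.37). BIRC5, a mitotic survival protein also called survivin, was 10.35, 9.96 and 10.21 against 9.66 to 11.90 (difference -0.87, SE 0.36), with HCC70 below all 3. FOXM1, a transcription factor of the cell cycle, ran the other way at 0.46 (SE 0.28). These values are relative levels at harvest, and growth rates of the lines were not analysed here.

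A count that uses no model of the spread gave 72 genes whose 3 BRCA1-mutant values lay outside all 10 others (0.547% of genes), 39 above (0.296%) and 33 below (0.251%). The balance between the directions depended on the setting, at 32 above and 45 below with arrays centred on their medians, 35 and 39 with probe sets averaged, and 57 and 65 with no filter. Of these, 20 above (0.152%) and 4 below (0.0304%) also had an unadjusted p under 0.05 and a difference of at least 1. The 19 named here are the 15 above with the largest difference and the 4 below. Since separation chose them, their values describe the lines and none passed the adjusted threshold.

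The largest differences among them were in PI3, VNN1 and ABCG1. PI3, the protease inhibitor elafin, was 13.16, 13.24 and 13.27 in HCC1937, MDAMB436 and SUM149PT, a spread far narrower than that of the other lines, which ran from 5.20 in MDAMB231 through a median of 9.55 to 12.14 in MDAMB468 (difference 4.19, SE 1.497). VNN1, a pantetheinase of the cell surface, was 7.14, 9.73 and 8.22 against 2.54 to 6.96 (difference 3.95, SE 0.91). ABCG1, a cholesterol exporter, was 10.24, 11.11 and 10.41 against 3.39 to 9.65 (difference 3.75, SE 1.22), and the ABCG1 difference was 1.88 with its probe sets averaged. The long non-coding RNA LINC01550 was 5.88, 7.14 and 7.94 against 3.93 to 5.41, which put all 10 other lines below background. LINC01550 passed the filter on low values through the 3 mutant lines alone, so its difference had to be large and supports nothing.

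ZC3H12A, the ribonuclease regnase-1 that degrades transcripts of inflammatory cytokines, was 8.19 in HCC1937, 10.34 in MDAMB436 and 9.95 in SUM149PT, with the others at 6.65 to 7.83 (difference 2.27, SE 0.42, limma unadjusted p = 0.0001071, adjusted p = 0.705). NFKBIA, the inhibitor of NF-kappaB, which fell outside the rule for named genes and was picked out after its values were seen, was 11.61, 12.05 and 12.11 against 10.30 to 11.53. For both genes HCC1937 was the nearest of the mutant lines to the others. PTGES, the enzyme that makes prostaglandin E2, was 12.90, 12.83 and 13.32 against 9.60 to 12.63 (difference 1.29, SE 0.51).
The NFKBIA window is shown because NFKBIA is a textbook target of the factor it inhibits. It is from RefSeq (GRCh38.p14, chr14:35404700-35404999, minus strand), 5′ to 3′ along the gene, with capitals at the single match, on either strand, to the NF-kappaB motif in a form with 1 free position.
NFKBIA: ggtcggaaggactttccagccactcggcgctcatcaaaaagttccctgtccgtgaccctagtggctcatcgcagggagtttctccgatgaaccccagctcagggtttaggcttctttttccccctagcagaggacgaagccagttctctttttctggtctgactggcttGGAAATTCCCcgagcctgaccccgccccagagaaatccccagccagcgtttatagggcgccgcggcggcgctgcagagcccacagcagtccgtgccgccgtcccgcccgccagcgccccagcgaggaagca
The match begins at position -81 from the start, and 196 of 35116 windows of this length (0.558%) hold at least 1.

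Smaller separations upward were spread over unrelated functions. OPLAH, which opens 5-oxoproline in the glutathione cycle, was 6.50, 7.51 and 6.15 against 4.71 to 6.11, so SUM149PT cleared HCC70 only barely. PELO, a factor that rescues stalled ribosomes, was 8.45, 9.73 and 8.65 against 6.49 to 8.30, and MOCS2-DT was 7.38, 7.11 and 6.88 against 4.12 to 6.56. DPH6, an enzyme of diphthamide synthesis, was 9.16, 8.45 and 9.69 against 6.64 to 8.38, a difference of 1.496 that was 0.94 with probe sets averaged. AEBP2, a cofactor of the Polycomb complex PRC2, was 10.25, 10.16 and 10.87 against 8.79 to 10.13, and CHCHD10, a mitochondrial protein, was 10.79, 10.93 and 10.81 against 8.29 to 10.71. The last of the 15 were DNAH14 (difference 1.17, SE 0.42), SLC33A2 (1.08, SE 0.38) and JRK (1.06, SE 0.35). DNAH14 kept no difference (-0.003) when the mean of its probe sets replaced the one of highest mean.

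Below all 10 other lines were CPA4, NEK11, ACAT2 and CENPI. CPA4, a secreted carboxypeptidase, was 9.45, 8.59 and 8.58 against 10.13 to 12.85 (difference -2.48, SE 0.56). NEK11, a kinase of the DNA damage response, was below background in all 3 at 4.21, 3.94 and 3.61, against 4.63 to 6.77 (difference -2.04, SE 0.47, or -1.37 with probe sets averaged). ACAT2, the cytosolic acetoacetyl-CoA thiolase at the start of sterol synthesis, was the most even of the group, at 10.75, 10.93 and 10.85 against 11.42 to 12.65 (difference -1.19, SE 0.23, limma unadjusted p = 0.0001752, adjusted p = 0.7685). CENPI, a centromere protein, was 7.89, 8.47 and 7.996 against 8.48 to 9.71, with MDAMB436 and HCC1143 nearly equal. With subtype as a term the difference was 4.63 for PI3, 3.77 for VNN1, 4.01 for ABCG1, -2.33 for CPA4 and -2.08 for NEK11. In HCC1395, 7 of the 19 lay outside the 10 lines on the same side (LINC01550, DPH6, OPLAH, CHCHD10, SLC33A2, JRK and CPA4). The other 12, among them PI3 at 7.11 and VNN1 at 2.66, did not. The share of all detected genes for which HCC1395 lies outside these 10 lines was not computed. It is therefore not known whether 7 of 19 is many or few.

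**Figure D4:**
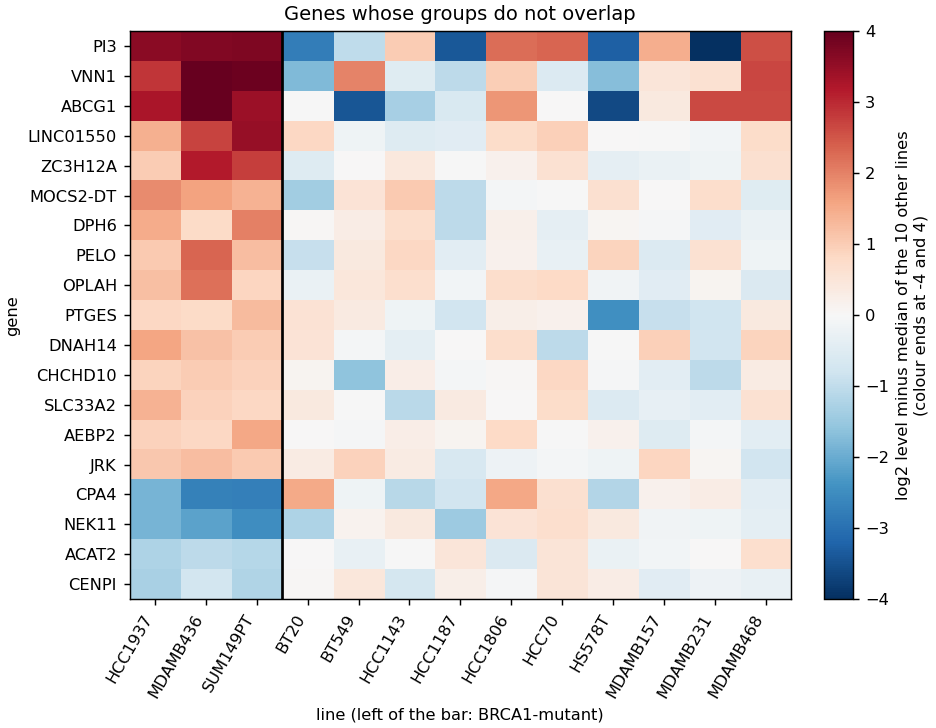
Level of each of 19 genes (rows) in 13 lines (columns), as the log2 value minus the median of the 10 other lines, from blue (lower) to red (higher); these genes were chosen because the groups do not overlap. PI3 is near 13 in all 3 mutant lines while the other lines spread from 5.20 to 12.14, and several lines to the right of the bar are also red for PI3, VNN1 and ABCG1.

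Some genes were high in MDAMB436 and SUM149PT and low in HCC1937. Without HCC1937, 4 genes passed the adjusted threshold in limma, all higher: LINC00473 (adjusted p = 0.0002176), CSF3 (adjusted p = 0.001627), ZC3H12A (adjusted p = 0.01541) and FRG1 (adjusted p = 0.03313). This comparison, 2 basal B lines against all 10 others, was 1 of 13 that each left out 1 line. Of the 4 genes, ZC3H12A (8.19) and FRG1 (11.74) were not low in HCC1937, where both exceeded all 10 others. LINC00473, a long non-coding RNA known to respond to cyclic AMP signalling, was 11.44 in MDAMB436 and 10.996 in SUM149PT, above every other of the 58 arrays. In HCC1937 it was 3.74, below background, and in the 10 others it lay between 3.68 and 6.05, with only MDAMB157 (6.05) above background. CSF3, the granulocyte colony-stimulating factor, was 11.20 and 9.17 in MDAMB436 and SUM149PT, 4.06 in HCC1937 and 4.11 to 5.74 in the others. Of those others only BT549 (5.74) was above background. LINC00473 and CSF3 both passed the filter on low values through MDAMB436, SUM149PT and 1 other line. Their adjusted p therefore rests on values at the floor in most other lines and is given as a description only. CCL20, a chemokine picked out after its values were seen, was 12.01 and 12.37 in that pair, 5.995 in HCC1937 and 3.54 to 7.33 in the others.
The LINC00473 window is shown because no gene had a smaller adjusted p in that comparison. It is from RefSeq (GRCh38.p14, chr6:165987990-165988289, minus strand), 5′ to 3′ along the gene, with capitals at its 2 matches, on either strand, to TGACGT, the motif given for BRCA1 above.
LINC00473: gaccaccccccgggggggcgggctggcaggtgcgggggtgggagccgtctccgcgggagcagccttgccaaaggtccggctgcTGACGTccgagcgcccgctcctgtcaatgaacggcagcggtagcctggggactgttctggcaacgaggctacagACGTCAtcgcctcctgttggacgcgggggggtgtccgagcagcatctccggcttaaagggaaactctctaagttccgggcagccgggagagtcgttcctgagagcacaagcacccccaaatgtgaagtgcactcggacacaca
The matches begin at -167 and -93 from the start.

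Several genes of DNA sensing and interferon signalling, which respond to DNA outside the nucleus, differed widely among the 3 mutant lines. CCL5, a T-cell chemokine, was 10.85 in HCC1937 and 12.98 in MDAMB436, above all 10 others at 5.76 to 9.64, but 6.12 in SUM149PT, below their median of 6.65. Its difference was 2.92 (SE 1.21, limma unadjusted p = 0.03121, adjusted p = 0.9997). CXCL10 stood out in MDAMB436 alone, at 9.44 against 5.96 in HCC1937, 4.66 in SUM149PT and at most 7.14 in the others. The sensors did not separate: CGAS differed by 0.56 (SE 0.92) and its adaptor STING1 by 0.73 (SE 1.24).
Of 19 interferon-stimulated genes, 15 had a positive difference, none passed an unadjusted p of 0.05, and the median of 0.32 became -0.21 without HCC1937. The mean distance of these genes from their medians ran from -1.56 to 1.81 in the mutant lines and from -1.65 to 1.64 in the others. IFI44L was high in all 3 mutant lines (10.69, 9.58 and 10.72), yet HCC1187 exceeded them at 11.73, while RSAD2 was 8.73 and 10.07 in HCC1937 and MDAMB436 and 2.64 in SUM149PT.

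Lineage genes differed widely among lines of either group. KIT, a receptor of luminal progenitors, the cells from which BRCA1 tumours are thought to arise, was below background in all 3 mutant lines (3.87, 4.45 and 3.92), while the others ran from 3.58 through a median of 8.02 to 11.51. Of those others, BT20, BT549, HS578T and MDAMB231 were also below background for KIT, and the rest were above it. The KIT difference was -3.52 (SE 1.81, limma unadjusted p = 0.0741, adjusted p = 0.9997), and the groups overlapped. SLPI, a protease inhibitor of progenitor cells related to elafin, was 13.64, 12.30 and 13.28 against 5.71 to 13.70. The luminal progenitor list as a whole had 8 of 12 positive differences and a median of 0.44, which became -0.21 without HCC1937.
The mean distance of 15 epithelial genes from their medians was -4.38 in MDAMB436, -0.02 in SUM149PT and 0.94 in HCC1937. The splicing regulator ESRP1 was 4.22 in MDAMB436, 12.58 in HCC1937 and 11.80 in SUM149PT, the protease inhibitor SPINT2 was 5.58, 12.71 and 12.03 in that order, and the desmosome gene DSC3, of the basal list, was 5.72, 11.32 and 10.40. The transcription factor ELF3 did not follow, at 9.18, 11.21 and 8.56. The mesenchymal factor ZEB1 was 9.77 in MDAMB436 and below background, at 3.42 and 3.93, in HCC1937 and SUM149PT. TWIST1 divided them differently, at 3.67 in HCC1937, 11.98 in MDAMB436 and 11.42 in SUM149PT. No member of the basal, luminal, epithelial or mesenchymal lists passed an unadjusted p of 0.05, and the medians of the basal, luminal and mesenchymal lists changed sign with subtype as a term.

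Pairwise likeness was on average higher within a subtype than between subtypes, but not for SUM149PT. The correlation of gene-centred levels over 13160 genes, which share arrays and gene-wise centring and are not independent, averaged -0.11 over the 3 pairs of mutant lines, -0.07 over the 30 mutant to other pairs and -0.09 over the 45 pairs of other lines. Over the 36 pairs of the same subtype it averaged 0.06 and over the 42 pairs of different subtype -0.21. The nearest line to HCC1937 was MDAMB468 (r = 0.26), to MDAMB436 it was BT549 (r = 0.22), and to SUM149PT, a basal B line, it was the basal A line HCC1806 (r = 0.06). With the other basal B lines SUM149PT had r from -0.133 to 0.001. No mutant line had another mutant line as its nearest.

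Each mutant line also had genes that lay at least 2 log2 units outside all 12 other lines. There were 26 in HCC1937 (17 above and 9 below), 33 in MDAMB436 (18 and 15) and 27 in SUM149PT (15 and 12). In the 10 other lines the count ran from 30 in HCC1143 to 129 in HCC1187, so that HCC1937 and SUM149PT had the fewest of the 13, and MDAMB436 fell between HCC1143 and HCC1806. With no filter that order was lost: HCC1143 had the fewest at 45, against 55 in HCC1937 and 54 in SUM149PT, and MDAMB436, at 72, exceeded MDAMB231 and MDAMB468 at 59 each and BT549 at 67. The genes named next were chosen for such gaps and are a description.

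In HCC1937 the largest gaps below were in a run of adjacent genes. GLUD1, the mitochondrial glutamate dehydrogenase, was 2.81 against 10.50 to 12.52 in the other 12 lines, with a shift of -4.09 in its other probe sets beside -8.57. MINPP1, an inositol phosphatase, was 2.17 against 8.56 to 10.07, and ATAD1, a mitochondrial membrane ATPase, was 2.82 against 9.42 to 10.92. NUTM2A-AS1 and PAPSS2, which lie between them in gene order, were also below all 12 (2.21 and 2.66), although BT20 was equally at background for PAPSS2 at 2.81. GLUD1, MINPP1 and ATAD1 were each at the lowest level of the 58 arrays, and the flanking detected genes AGAP11 (5.51) and RNLS (6.99) lay inside the range of the others. AGAP1, elsewhere in the genome, was 2.86 against 8.58 to 10.65. Around AGAP1 in gene order, DGKD (7.17 against 8.15 to 9.80), COPS8 (9.08 against 10.06 to 11.47), ATG16L1, HJURP, GBX2 and COL6A3 were also below all 12. NGEF, USP40, SH3BP4, DRC11, ACKR3 and RAB17 lay inside the others' range. SNRNP27, a splicing factor, was 6.69 against 11.78 to 12.53, but its other probe set shifted by only -0.445.
Above the other 12 in HCC1937 were TRIM31 (10.07 against at most 5.58), a ubiquitin ligase, LYPD2 (8.999 against at most 5.77) and PPP1R1C (10.21 against at most 7.05), the last 2 the highest of the 58 arrays, with CLTRN (9.54 against at most 6.58) and MAL (9.94 against at most 6.63). The second probe set of MAL did not follow (shift -0.321).

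In MDAMB436, MTMR1, a lipid phosphatase, was 3.24 against 10.53 to 12.35, and its neighbours MTM1 (9.25) and CD99L2 (10.10) lay inside the others' range. RAD51B (3.16) was accompanied by its neighbour ZFYVE26 (3.82 against 7.36 to 8.81), and ZFP36L1 on the other side, an RNA-binding protein, was 11.06 against 12.34 to 13.03. The other probe sets of RAD51B were lower by a smaller amount (shift -2.47 beside -4.53). DHTKD1 (3.36 against at least 9.31), SRA1 (4.84 against at least 9.51) and GRAMD2B (4.95 against at least 9.39) were likewise the lowest of the 58 arrays.
On the high side in MDAMB436 were HSD11B1, which regenerates cortisol (11.70 against at most 7.17), PTGDS, a prostaglandin synthase (10.28 against at most 6.23), CRMP1 (10.89 against at most 7.44), the cyclin CCND2 (10.595 against at most 7.27, though its other probe set shifted by 1.45 beside 7.80) and the cytokine IL1B (12.86). For IL1B the next line was SUM149PT at 9.76, HCC1937 had 7.80, and the 10 others ran from 2.97 to 9.65.

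In SUM149PT a run of low genes lay around the CDKN2A locus. TUSC1 was 4.07 against 8.92 to 11.39, and MTAP, a methionine salvage enzyme that neighbours the cell cycle inhibitors CDKN2A and CDKN2B, was 2.35. CDKN2A was 2.58 and CDKN2B 3.23. These last 3 were not particular to SUM149PT: MDAMB231 had 2.40 for MTAP and 3.17 for CDKN2B, and CDKN2A was at 2.62 to 3.72 in HS578T, HCC1806, MDAMB231 and BT20. TUSC1 was low in SUM149PT alone of the 13. STK11, the kinase LKB1, was 5.51 against 9.64 to 11.85 and the lowest of the 58 arrays, while its neighbours SBNO2 (8.17) and CBARP (5.27) lay inside the others' range. The other probe set of STK11 shifted by -1.49 beside -5.47. IQCK and its neighbour GPRC5B were 4.12 and 4.01 against at least 8.51 and 6.41, with a shift of -2.77 beside -5.12 in the other probe sets of IQCK, and NUDT12 was 2.73 against at least 6.94. ZNF284 was 3.65 against at least 7.78, though its other probe sets shifted by only -0.4. Around ZNF284 in gene order, ZNF222 (4.54 against 6.54 to 8.34), ZNF155, ZNF230, ZNF224, ZNF226 and ZNF227 were also below all 12. ZNF283, ZNF404, ZNF45, ZNF234, ZNF233 and ZNF235 lay inside the others' range.
On the high side in SUM149PT were PF4, a platelet chemokine (12.44 against at most 7.06), NOX5, an oxidase (10.87 against at most 7.18), PNLIPRP3 (10.71), MCTP2 (9.72) and CD68, a lysosomal protein used as a macrophage marker (11.03 against at most 8.26), all at the highest level of the 58 arrays.

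**Figure D5:**
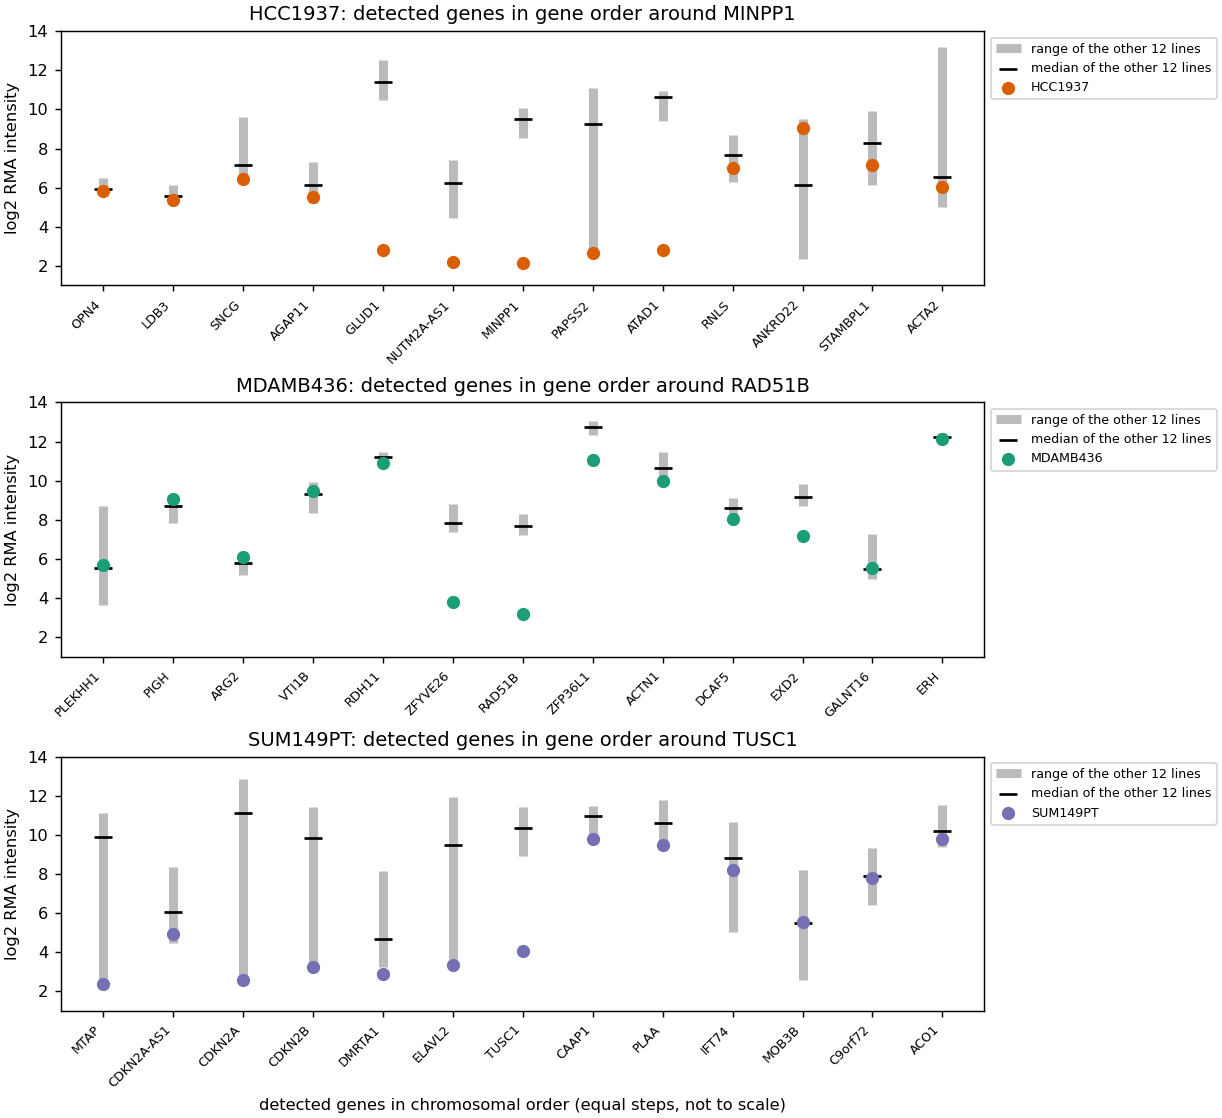
Level (log2 RMA intensity, vertical axis) of 13 detected genes in chromosomal order (horizontal axis, equal steps) around MINPP1 in HCC1937, RAD51B in MDAMB436 and TUSC1 in SUM149PT, as coloured points, over the range (grey bar) and median (black mark) of the other 12 lines. GLUD1 to ATAD1 in HCC1937 and ZFYVE26 with RAD51B in MDAMB436 lie below the grey bars, whereas for CDKN2A the bar itself reaches down to 2.62.

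Markers of other cell types were measured as a check on the cultures. Of 9 stromal fibroblast genes, 3 were above background in any mutant line and 9 in any other line, with a summed level of 7.99 to 10.99 in the mutant lines and 8.45 to 16.16 in the others, the top being HS578T with LUM at 12.63 and COL1A2 at 13.84. In every list the 10 other lines gave more chances to exceed background than the 3 mutant lines. Of 8 blood cell genes 4 were above background in any mutant line and 5 in any other line, with a summed level of 10.10 to 11.39 against 7.03 to 11.46. Of 8 endothelial genes it was 3 and 7, at 9.30 to 10.59 against 8.61 to 10.46. PECAM1, an endothelial adhesion protein, was 9.15 and 9.65 in HCC1937 and MDAMB436, above all 10 others at 4.74 to 7.98, and 6.86 in SUM149PT. The rest of the endothelial list did not follow PECAM1. ENG was above background in 3 mutant and 10 other lines, and CDH5 in 1 mutant and 1 other line. VWF, KDR, TEK, TIE1 and ERG were above background in 0 mutant lines, against 1, 3, 2, 0 and 2 of the others. Of 8 smooth muscle genes 5 were above background in any mutant line and 7 in any other line (10.29 to 11.74 against 8.79 to 15.10). Of 6 adipocyte genes it was 4 and 4 (8.42 to 10.44 against 7.91 to 11.07). The part of these markers in the differences above was not tested.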

How the data were processed

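Members and gene lists were chosen with earlier results of these data known. Per the labels' protocols, RNA of untreated cultures went through NuGEN amplification and biotin labelling. The authors deposited log2 intensities, made by RMA in Affymetrix Power Tools per the submitters' processing notes (versions and the build of the annotation are not given in the sources used here). Of 52377 probe sets, 35184 named 1 gene in the platform annotation and were used (35134 with symbols updated through a RefSeq table), and 374 named several. XIST and Y-linked genes were left out.

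The main test was limma 3.58.1 (R 4.3.3) with trend and robust variance, 3 against 10 lines, with Benjamini-Hochberg adjustment over 13160 genes. The script was tested on simulated data. A 2-sided exact permutation test was also run for each named gene, and its p is given here for BRCA1 only. With 1 array per line, p-values measure the spread between lines, with error of measurement included in it. Named were the measured BRCA1 complex members, up to 15 separated genes each way, the 4 detected members of each other list with the largest difference, and the 5 largest gaps above and below per mutant line. The 23 lists held 315 members. The test of status by subtype was added after the data were seen. Alternatives were probe set averaging, normalization, centring, filters, subtype, variance settings, array weights, HCC1395 added, basal B only and each line left out. Some samples, genes and sequences are not analysed here. Promoter windows are RefSeq's.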

Additional observations from a re-analysis of the deposited data

Results flagged for a closer look

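Over 142 named genes, 16 were singled out. In 9 genes 1 of the 10 other lines stood far from the rest of its group, as chance gives in about 1 in 20 groups. They were PTGES, where HS578T was at 9.60, MTAP (MDAMB231, 2.40), INPP4B (HCC1187, 3.54), ENG (MDAMB231, 6.13), FABP4 (HCC1806, 10.96), MAL (MDAMB157, 6.63), CCND2 (MDAMB231, 7.27), PNLIPRP3 (HCC1806, 6.06) and MCTP2 (HCC1806, 6.51).

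In 7 genes the mutant minus other difference was not the same in basal B as in basal A, by a limma interaction term with adjusted p under 0.05 over all genes. The basal A mutant group is HCC1937 alone, assumed to vary like the other groups, and all 7 had been named as genes in which that line is extreme, so this describes HCC1937. The basal B minus basal A value was -4.68 for TRIM31, -3.88 for LYPD2, 8.26 for GLUD1, 7.38 for ATAD1, 6.52 for MINPP1, 7.22 for AGAP1 and 5.61 for SNRNP27. LINC00473, outside the rule for named genes, also passed (6.92, limma adjusted p = 0.01966). For BRCA1 the value was -2.16, with an unadjusted p of 0.007342 and an adjusted p of 0.9915 in limma.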

How the results depend on the processing

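No gene passed the adjusted threshold in limma under any alternative except leaving out HCC1937: over the 13 left-out lines the count was 0 to 4 higher and 0 to 0 lower. The BRCA1 difference stayed negative throughout, from -1.74 to -0.51 over left-out lines. It was -0.88 with subtype as a term and -1.73 among basal B lines only, both with an exact permutation p of 0.1333. With HCC1395 added it was -1.10 (exact permutation p = 0.01199). Genes above all other lines numbered 44 (of 13077) to 229 (of 13069) over left-out lines. They numbered 63 (of 13071) without BT20, 164 (of 13054) without MDAMB436 and 150 (of 13068) without SUM149PT. With HCC1395 added there were 16 (of 13240), and among basal B lines only 1083 (of 12014). Genes below numbered 35 (of 13049) to 168 (of 13069) over left-out lines, with 142 (of 13054) without MDAMB436 and 156 (of 13068) without SUM149PT. They numbered 51 (of 13053) without HCC1806, 50 (of 13069) without HCC70 and 65 (of 19769) with no filter (57 above). With HCC1395 added there were 5 (of 13240) below, and among basal B lines only 920 (of 12014). Fewer lines make separation easier and more lines harder. Genes at least 2 log2 units outside the other 12 numbered 55, 72 and 54 in HCC1937, MDAMB436 and SUM149PT with no filter and 16, 19 and 17 with detection in at least 7 lines. Of 142 named genes, 15, 14 and 17 changed sign without HCC1937, MDAMB436 and SUM149PT, 14 of 122 among basal B lines only, and 2 of 136 with probe sets averaged. Of 529 list medians, 55 changed sign. No probe set used was marked for cross-hybridisation, so that alternative was not run. No paired analysis was possible because the replicate numbers only name different lines.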
